A study of Bos taurus with 6 samples.

Results

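The 10 genes described here make, break down or regulate the polyamines. They are the arginase ARG2, the synthetic enzymes ODC1, AMD1 and SRM, the catabolic genes SAT1, SAT2 and SMOX, and the regulators OAZ1, OAZ2 and AZIN1. They were taken by gene symbol from the deposited array table. Each symbol matched a single transcript cluster (the unit in which this array reports a gene), so that they account for 10 of the 26773 transcript clusters.

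The table holds RNA signals of 6 cultures of primary bovine granulosa cells (GC), of which 3 had been plated at normal and 3 at high density, and each culture had its own array. Cultures of both densities grew for 9 days without serum in alpha-MEM, to which FSH, androstenedione and IGF-1 were added. According to the methods the cells came from small to medium follicles of abattoir ovaries, were pooled over many cows of undefined cycle stage and had been frozen before culture. The samples therefore stand for pooled preparations and not for single animals, and the sources do not say whether a normal and a high density culture came from the same pool. The p-values measure the spread between these preparations.

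Polyamines (putrescine, spermidine and spermine) are small positively charged molecules that bind nucleic acids and are needed for growth and translation. Ornithine is decarboxylated to putrescine by ornithine decarboxylase (ODC1), and aminopropyl groups derived from S-adenosylmethionine are then added by the spermidine and spermine synthases. The level is held within limits by antizymes, which send ornithine decarboxylase to the proteasome, and by acetylation, which marks spermidine and spermine for export or oxidation. In the ovary, ornithine decarboxylase activity is known to rise after the LH surge.

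All signals are on the log2 scale. Differences are log2 fold changes (log2 FC) of high minus normal density with their standard errors (SE) from limma, and adjusted p-values are limma's, adjusted by Benjamini-Hochberg over the whole table. A gene is termed called when its fold change exceeds 1.5 in size and its p-value and FDR are below 0.05. The background level of 4.62 is the 95th percentile of the 82 reporter control rows. Signal levels of different genes were not compared with each other, because probes differ in their response. Differences between genes within an array were read only for their shift between densities.

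Of the polyamine genes, 3 were called at high density. The acetyltransferase SAT1 rose 1.53-fold, its paralogue SAT2 fell 1.72-fold, and the antizyme OAZ2 fell 1.58-fold. The remaining 7, including all of the genes for putrescine, spermidine and decarboxylated S-adenosylmethionine synthesis, were not called. The share of 3 in 10 genes, 30% of the members, stands beside 7.49% of all transcript clusters called in either direction, 3.97% called higher and 3.51% called lower. The members were chosen with earlier results of these data known, so these shares are no test of an excess. All transcript clusters include many at the background. In a fit on those above the background level, 1695 of 13077 were called. Of the members, SMOX and ARG2 had both means below that level. The median log2 FC of the members was 0.04, and that of all transcript clusters 0.02. In bulk RNA a change in the cells that carry a transcript and a change in the transcript per cell cannot be told apart.

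**Figure D1:**
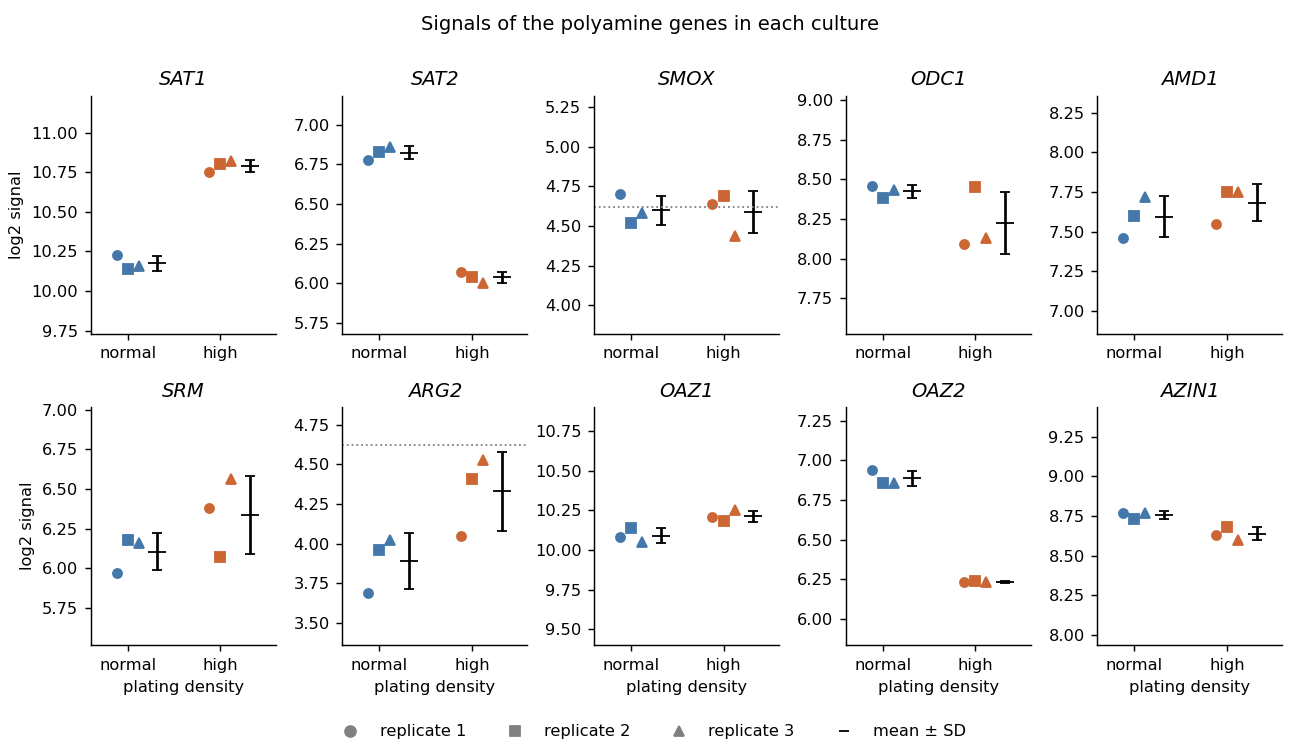
Log2 signals of the 10 polyamine genes (y axis, each panel spanning 1.5 log2 units) by plating density (x axis), with a symbol for each replicate, the mean ± SD beside them and the background level of 4.62 as a dotted line where it falls within a panel. The densities stand clearly apart for SAT1, SAT2 and OAZ2, while ODC1 and SRM show a high density replicate 2 within the range of the normal density cultures.

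SAT1, the enzyme that acetylates spermidine and spermine and so limits the rate of their breakdown, had signals of 10.23, 10.14 and 10.16 in the normal density cultures and of 10.75, 10.80 and 10.82 in the high density cultures. Every high density culture lay above every normal density culture, and the spread within each density was small beside the gap. The means were 10.18 ± 0.05 and 10.79 ± 0.03 (SD, n = 3), a log2 FC of 0.62 (SE 0.07, limma's adjusted p = 8.51e-04). This is close to the fold change threshold. Of the called transcript clusters that rose, 92.4% rose more than SAT1. When each array was shifted to the same median, the log2 FC was 0.57 and SAT1 was not called, although its adjusted p from limma was then 0.00139.

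SAT2 is a paralogue of SAT1, but the enzyme is known to prefer thialysine to the polyamines as substrate. Its signals were 6.78, 6.83 and 6.86 at normal density and 6.07, 6.04 and 6.0 at high density. All of the high density cultures were lower, without overlap. The fall from 6.82 ± 0.04 to 6.04 ± 0.03 (SD, n = 3) was the largest change among the polyamine genes, with a log2 FC of −0.79 (SE 0.07, limma's adjusted p = 2.73e-04). It was of ordinary size for a call in this table, as 46.5% of the called falls were larger.

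SMOX, the oxidase that converts spermine directly to spermidine, gave signals of 4.70, 4.52 and 4.58 at normal density and of 4.64, 4.69 and 4.44 at high density. The cultures of both densities were mixed, and both means, 4.60 and 4.59, were below the background level. The log2 FC was −0.01 with a 95% interval from −0.22 to 0.21, which leaves out a change of the size needed for a call. Near the background, however, a difference in RNA may be measured as too small.

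Of the antizymes, OAZ2 fell and OAZ1 was not called. OAZ1, the major antizyme, had signals of 10.08, 10.14 and 10.05 at normal density and of 10.21, 10.18 and 10.25 at high density. The high density cultures were slightly above the others without overlap, but the log2 FC of 0.12 was not called (SE 0.07, limma's adjusted p = 0.249), and its 95% interval ran from −0.03 to 0.28. OAZ2, a second antizyme that is likewise made through polyamine-induced ribosomal frameshifting, had signals of 6.94, 6.86 and 6.86 at normal density. At high density its signals were 6.23, 6.24 and 6.23.

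The high density cultures of OAZ2 were thus almost equal and all below the normal density range. The means were 6.89 ± 0.05 and 6.23 ± 0.01 (SD, n = 3), a log2 FC of −0.66 (SE 0.06, limma's adjusted p = 5.80e-04). Among called falls, 77.3% were larger than that of OAZ2.

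AZIN1, an enzymatically inactive relative of ornithine decarboxylase that binds antizyme and thereby spares the enzyme, had signals of 8.77, 8.73 and 8.77 at normal density and 8.63, 8.68 and 8.60 at high density. Here the high density cultures were all lower by a small margin. The log2 FC of −0.12 was not called (SE 0.06, limma's adjusted p = 0.242, 95% interval from −0.27 to 0.03). Non-overlapping groups alone were common in this experiment. They were found for 6 of the polyamine genes (SAT1, SAT2, OAZ1, OAZ2, AZIN1 and ARG2) and for 37.3% of all transcript clusters.

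**Figure D2:**
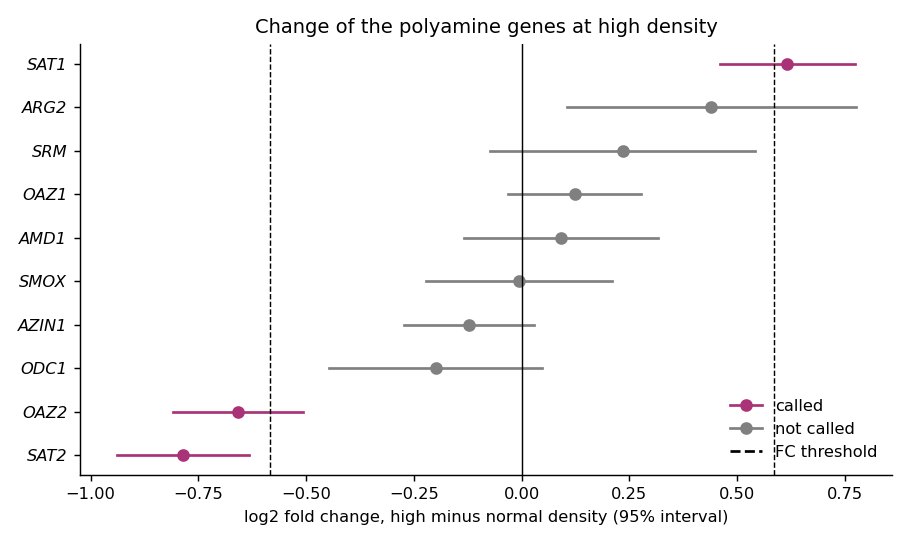
Log2 fold changes of the 10 polyamine genes, high minus normal density (x axis), with 95% intervals from limma, ordered by size (y axis), and the fold change threshold of 1.5 as dashed lines. The called genes are SAT1 at 0.62, OAZ2 at −0.66 and SAT2 at −0.79, and the other genes lie between −0.20 and 0.44.

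The paralogues were also set against each other within each array. This removes a constant shift between arrays, but not a scaling that depends on the size of the signal. Only the shift between densities can be read from this difference, not its level. SAT1 minus SAT2 was 3.45, 3.31 and 3.30 at normal density and 4.69, 4.76 and 4.82 at high density. The mean rose from 3.35 ± 0.08 to 4.76 ± 0.07 (SD, n = 3), a shift of 1.40 on the log2 scale or 2.64-fold.

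For OAZ1 minus OAZ2 the differences were 3.13, 3.27 and 3.19 at normal density and 3.98, 3.94 and 4.02 at high density, a shift of 0.78 or 1.72-fold. Neither of these pairs overlapped between densities. ODC1 minus AZIN1, in contrast, averaged −0.34 ± 0.02 and −0.41 ± 0.16 (SD, n = 3), and the cultures overlapped. These shifts are given as a description without a test, since SAT1, SAT2 and OAZ2 were already known to move. OAZ1 was not called, and most of the shift of its pair was the fall of OAZ2.

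**Figure D3:**
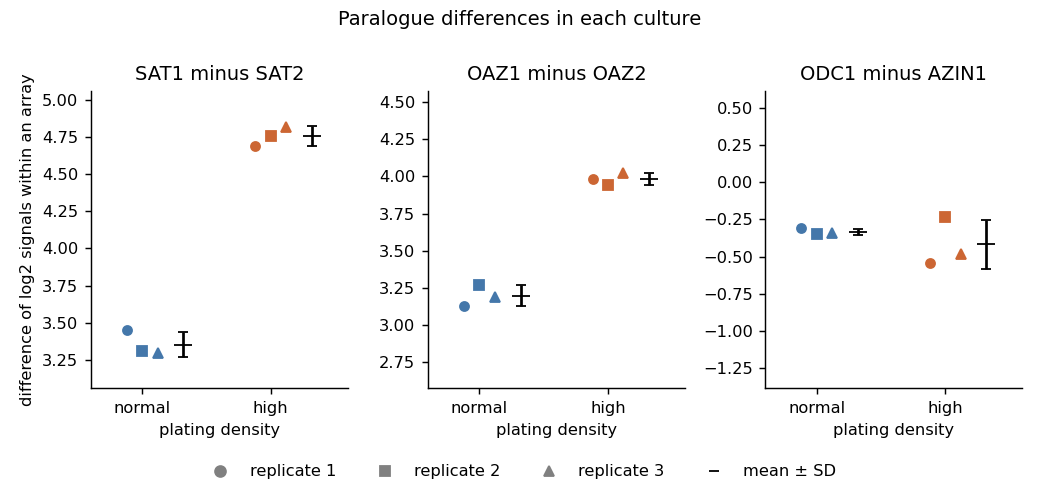
Difference of the log2 signals of 2 related genes within the same array (y axis, each panel spanning 2 log2 units) by plating density (x axis), with a symbol for each replicate and the mean ± SD. SAT1 minus SAT2 shifted by 1.40 and OAZ1 minus OAZ2 by 0.78 at high density, while ODC1 minus AZIN1 overlapped between the densities.

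ODC1, the first and rate-limiting enzyme of polyamine synthesis, had signals of 8.46, 8.38 and 8.43 at normal density and of 8.09, 8.45 and 8.13 at high density. High density replicate 2 lay within the normal density range, while replicates 1 and 3 were below it. The means were 8.42 ± 0.04 and 8.22 ± 0.20 (SD, n = 3), and the log2 FC of −0.20 was not called (SE 0.11, limma's adjusted p = 0.243, 95% interval from −0.45 to 0.05). Without high density replicate 2 it was −0.31 with limma's adjusted p = 0.0150, still below the fold change threshold, and without high density replicate 1 it was −0.13 with limma's adjusted p = 0.503.

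SRM, the spermidine synthase, showed the same arrangement in the opposite direction. Its signals were 5.97, 6.18 and 6.16 at normal density and 6.38, 6.07 and 6.56 at high density, so that replicate 2 was again within the normal range and the other high density cultures were above it. The means of 6.10 ± 0.12 and 6.34 ± 0.25 (SD, n = 3) gave a log2 FC of 0.23 (SE 0.13, limma's adjusted p = 0.269, 95% interval from −0.07 to 0.54). Without high density replicate 2 it was 0.37 with limma's adjusted p = 0.0381, and without high density replicate 3 it was 0.12 with limma's adjusted p = 0.583. SRM was called in neither case.

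The arrangement of ODC1 and SRM, with high density replicate 2 apart from the other high density cultures, was found in other genes too. In 12.5% of all transcript clusters replicate 2 lay within the normal range while replicates 1 and 3 lay on one side of it. The share with replicate 1 or 3 in this place was not counted, so this value alone does not single out replicate 2. Leaving out high density replicate 2, however, brought the share passing the FDR threshold at any fold change to 29.2%. It was 13.4% without replicate 1, 13.0% without replicate 3 and 19.1% with all cultures. The SD was larger at high density in 68.4% of all transcript clusters and in 5 of the members. For SAT1, SAT2 and OAZ2, replicate 2 differed from the mean of the other high density cultures by only 0.01 each. The calls of SAT1, SAT2 and OAZ2 held whichever single culture was left out.

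AMD1, which decarboxylates S-adenosylmethionine to the aminopropyl donor, had signals of 7.46, 7.60 and 7.72 at normal density and of 7.55, 7.75 and 7.75 at high density. The groups overlapped, with a log2 FC of 0.09 (SE 0.10, limma's adjusted p = 0.562, 95% interval from −0.13 to 0.32). This small value moved with single cultures, from 0.16 without high density replicate 1 to 0.026 without normal density replicate 1, and was 0.15, 0.059 and 0.058 without normal density replicate 3, high density replicate 2 and high density replicate 3. For ODC1, SRM and AMD1 the 95% intervals did not reach the fold change threshold, and smaller changes were not resolved with this number of arrays.

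ARG2, the mitochondrial arginase that produces ornithine, had signals of 3.69, 3.96 and 4.02 at normal density and of 4.05, 4.41 and 4.53 at high density. All high density cultures were higher, but every value was below the background level. The log2 FC of 0.44 was not called (SE 0.14, limma's adjusted p = 0.0746), and its 95% interval from 0.10 to 0.77 includes changes past the fold change threshold. Without high density replicate 1 it was 0.58 with limma's adjusted p = 0.0245, just under the fold change threshold, and without high density replicate 3 it was 0.34 with limma's adjusted p = 0.201.

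To place these genes in their pathway, 56 symbols from 7 lists of neighbouring functions were looked up. Of these 52 were found, with 53 transcript clusters. Only 5 transcript clusters were called, 9.43% of them, which is near the 7.49% of the whole table. At the FDR threshold and any fold change 15 passed, 8 up and 7 down, 28.3% of the list against 19.1% of all transcript clusters. Many of the latter lie at the background, as do both means of 15 of the 53 here. In a fit on the 13077 transcript clusters above the background level, 41.8% passed. The 28.3% includes transcript clusters at the background and the 41.8% does not. These shares are therefore not like for like, and an excess in the lists cannot be read from them.

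SLC7A1, the main carrier for arginine and ornithine at the cell surface, was the called gene among 11 of ornithine and arginine supply. Its signals rose from 6.97, 6.83 and 6.73 to 7.97, 7.68 and 8.09, with all high density cultures above the others and a log2 FC of 1.07 (SE 0.12, limma's adjusted p = 0.00107). ALDH18A1, which starts ornithine and proline synthesis from glutamate, and ASS1, which makes argininosuccinate, passed the FDR but not the fold change threshold, with log2 FCs of 0.34 and 0.46. Both ASS1 means were below the background level.

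Among 6 other amine oxidation genes MAOB, a mitochondrial monoamine oxidase, was called. It had signals of 4.39, 4.45 and 4.25 at normal density, all under the background, and of 5.52, 5.43 and 5.61 at high density, with a log2 FC of 1.16 (SE 0.09, limma's adjusted p = 1.67e-04). The related MAOA had a log2 FC of −0.48. PAOX, the peroxisomal oxidase that takes the acetylated products of SAT1, had a log2 FC of −0.39 (SE 0.07, limma's adjusted p = 0.00900). MAOA and PAOX passed the FDR but not the fold change threshold, and their groups did not overlap.

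None of the 9 genes of S-adenosylmethionine supply and methylthioadenosine salvage was called by limma or by the methods' t-test, while 4 had an unadjusted p below 0.05 and 3 passed the FDR threshold at any fold change. The largest change was that of MAT2A, which makes S-adenosylmethionine, with 9.19 ± 0.10 against 8.75 ± 0.04 (SD, n = 3) and a log2 FC of −0.44. ADI1 and MRI1, both of the salvage of methylthioadenosine to methionine, had log2 FCs of −0.42 and 0.41, so that these genes did not share a direction.

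Spermidine is also the donor for hypusine, the modified amino acid of the translation factor eIF5A. Of 4 genes of this step EIF5A2, the less widely expressed isoform, was called with signals of 5.85, 6.07 and 6.10 at normal density and 4.91, 5.46 and 4.91 at high density. Replicate 2 was the highest of the high density cultures but remained below the normal range. The log2 FC was −0.91 (SE 0.16, limma's adjusted p = 0.00753), and by the methods' t-test EIF5A2 was not called. The major isoform EIF5A, with a log2 FC of −0.09, and the hypusination enzymes DHPS and DOHH, with 0.18 and −0.03, were not called.

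Spermine synthase (SMS) is covered by a pair of transcript clusters. Neither was called, with log2 FCs of 0.18 and 0.29. The latter rested on single cultures, and was 0.075 without high density replicate 2, 0.47 without high density replicate 1 and 0.18 without normal density replicate 2. None of the 9 transport genes was called by limma or by the methods' t-test, and 3 had an unadjusted p below 0.05. The one that passed the FDR threshold was ATP13A3, a transporter of the polyamine-handling P5B ATPase family, with a log2 FC of −0.50 (SE 0.09, limma's adjusted p = 0.00734).

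The 11 transcriptional regulators included factors of the MYC network, for which ODC1 is a known target, and NFE2L2, known to act on SAT1. MYC itself was not called, with 5.99 ± 0.13 against 6.02 ± 0.14 (SD, n = 3) and a log2 FC of 0.03 (95% interval from −0.21 to 0.27). MYCN rose from 4.19, 4.02 and 4.28, below the background level, to 5.46, 5.42 and 5.51, a log2 FC of 1.30 (SE 0.09, limma's adjusted p = 1.12e-04). MXI1, an antagonist of MYC, rose from 6.96, 7.04 and 6.97 to 8.07, 8.08 and 7.95, a log2 FC of 1.04 (SE 0.07, limma's adjusted p = 1.26e-04).

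Neither MYCN nor MXI1 overlapped between the densities. NFE2L2 had a log2 FC of −0.53 (SE 0.07, limma's adjusted p = 0.00154), below the fold change threshold.

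**Figure D4:**
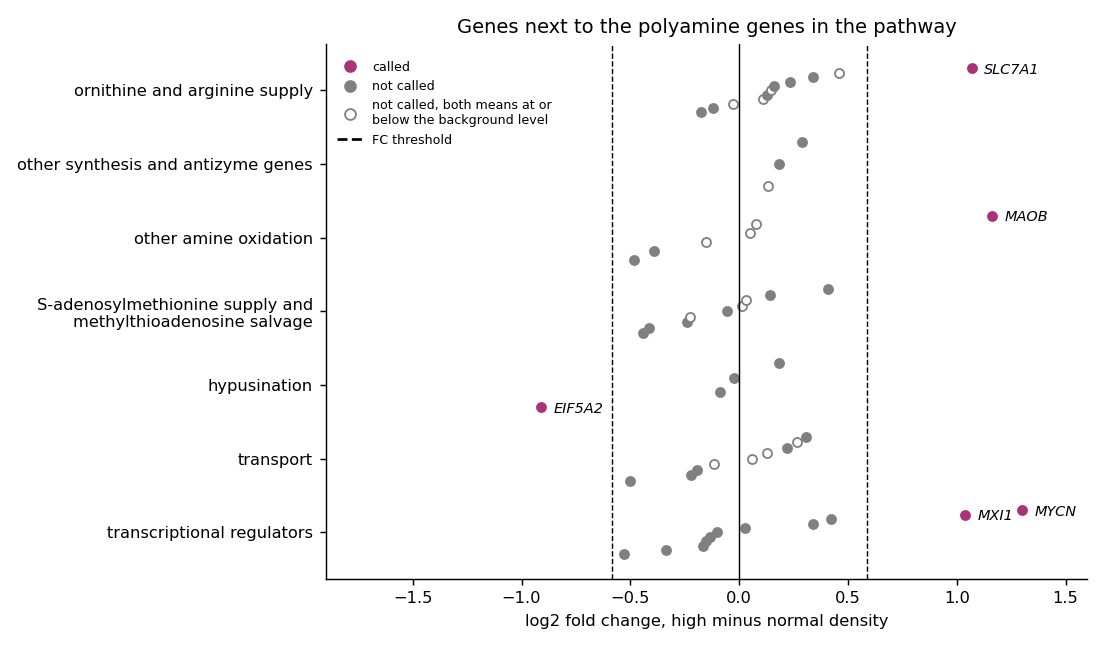
Log2 fold changes, high minus normal density (x axis), of 53 transcript clusters in 7 lists of genes next to the polyamine genes in the pathway (y axis), with called genes named, open symbols for genes with both means at or below the background level and the fold change threshold of 1.5 as dashed lines. SLC7A1, MAOB, MYCN and MXI1 lie above the threshold and EIF5A2 below it.

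The genes whose signals followed those of the called polyamine genes most closely over the 6 cultures were sought by Pearson's r among 11250 transcript clusters with a symbol and a signal above the background level. For SAT1 these were PGD, an enzyme of the pentose phosphate pathway, SNAP91 and NOV, with log2 FCs of 0.27, 0.84 and 1.19. For SAT2 they were TAF2 and PAF1, both of transcription complexes, and BT.65444, with −0.22, −0.29 and −0.56. For OAZ2 they were TNNI3, ATAD2 and ZNF462, with −0.55, −0.86 and −0.83.

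All of these r values were at least 0.999 after rounding. With 6 cultures in 2 groups such values rest mainly on the difference between densities, and they are given as a description only.

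The identity of the cultures was checked with marker lists. All 10 GC markers had a signal above the background level in at least one density, but 7 of them, including FSHR and CYP19A1, were called lower at high density and HSD17B1 was called higher. NR5A2, with a log2 FC of 0.41, passed the FDR but not the fold change threshold, and AMH, with −0.18, passed neither. The summed linear signal of this list was between 5251 and 5890 at normal density and between 2843 and 3173 at high density. SERPINE2, INHBA and FST, with the highest means at normal density (10.71, 10.21 and 10.17), weighed most in the sum there. Of the markers of endothelial cells 7 of 8, of leukocytes 8 of 8 and of red blood cells 5 of 6 were at or below the background level in both densities. The exception among the red blood cell markers was HBA, which set the summed signal of that list, 47.8 to 49.1 at normal density and 608 to 923 at high density.

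Stroma markers were above the background level, with a summed signal between 5348 and 5503 at normal density and between 5892 and 6029 at high density, and COL1A1 and PDGFRB of 6 were called higher. Of 5 theca cell markers INSL3 was called higher and LHCGR lower. The paper treats LHCGR as a gene of GC that falls at high density, so this list is not particular to theca cells. The summed signal was between 829 and 856 at normal density and between 955 and 1099 at high density. The higher sum came from INSL3 (7.20 to 9.02), the only marker of this list with a positive log2 FC. STAR and NR5A1, both above the background level, had log2 FCs of −0.49 and −0.28. STAR passed the FDR but not the fold change threshold, and NR5A1 passed neither. Both means of LHCGR, 4.04 and 2.84, and those of CYP17A1, the defining enzyme of theca cells, were below the background level. The surface epithelium list had 4 of 5 markers at or below the background level. The part of these shifts in the changes of SAT1, SAT2 and OAZ2 was not tested.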

How the data were processed

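Labelled RNA of 6 GC cultures was hybridized by the authors to Bovine Gene 1.0 ST arrays. The deposited table holds log2 signals that the authors made with Affymetrix Expression Console by the RMA procedure (background reduction, normalization between arrays, gene-level summary). Such signals compress differences near the background. The array medians were between 4.34 and 4.43, and the table holds 0 columns of other samples. The genome build is not given in the sources used here, so no positions are given. All 10 symbols are also RefSeq symbols.

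Differences were tested over the whole table by limma's moderated test (limma 3.58.1, R 4.3.3; lmFit, then eBayes with 1 prior variance and no covariate), at the thresholds of the methods. The number of arrays limits the precision. The scripts were tested on simulated data. The members and lists were chosen with earlier results of these data known. Named genes are the members, the called genes and the largest change of each related list, and the 3 genes most like each called member. Other genes of the related and marker lists were named after their values were seen. Figures were drawn with matplotlib 3.10.9. Alternatives were the methods' t-test and its Welch version, array weights, a trend in the prior variances, a block for the replicate number, other scalings, a filter on low signals, an FDR of 0.01 and leaving out each culture.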

Additional observations from a re-analysis of the deposited data

How the results depend on the processing

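SAT2 and OAZ2 kept their direction and their calls under all alternatives that were run, with log2 fold changes between −0.83 and −0.75 and between −0.70 and −0.63. SAT1 was between 0.57 and 0.64 and lost its call when the arrays were shifted to the same median, where 2 polyamine genes were called and not 3. That setting moved the median of all transcript clusters from 0.02 to −0.03. SMOX, which was not called, lay between −0.057 and 0.068 with each culture left out in turn, and its sign turned when normal density replicate 1 (0.046) or high density replicate 3 (0.068) was absent. No other polyamine gene changed its direction or was called under an alternative. At the FDR threshold and any fold change, however, 6 polyamine genes passed with array weights, in place of 3. Of all transcript clusters, 29.8% passed with array weights, in place of 19.1%. ODC1, SRM and ARG2 then had limma's adjusted p = 0.0328, 0.0427 and 0.0379. Without high density replicate 2 the number was 5, and with the replicate block or without high density replicate 1 it was 4. Of all transcript clusters, 29.2%, 14.9% and 13.4% passed in these settings, in that order.

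With the Welch version of the methods' t-test 838 transcript clusters were called in place of 2005, and 3 of the related genes in place of 5. SLC7A1 was then not called (adjusted p = 0.0577), and neither was EIF5A2 (adjusted p = 0.145 from this test and 0.0667 from the methods' t-test). The cause was not tested. With each culture left out in turn, 3 polyamine genes and 5 related genes were called each time, and between 1848 and 2434 of all transcript clusters, the latter without high density replicate 2. With the arrays shifted to the same median 955 transcript clusters were called higher and 1119 lower, in place of 1064 and 941, and with array weights 1128 and 1183.

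With the replicate number as a block, 2020 transcript clusters, 3 polyamine genes and 5 related genes were called. Deviations of same-numbered cultures from their group means correlated at 0.05, −0.05 and −0.04, and not every culture correlated best with its own number. Over all transcript clusters the numbers thus gave no sign of a pairing. Deviations from means of 3 cultures are a weak measure, however, and cannot tell whether same-numbered cultures shared a pool. For ARG2 the SE was 0.08 with the block and 0.14 without it, with limma's adjusted p = 0.0212 and 0.0746. The filter at the background level removed SMOX and ARG2, for which it gives no value. ARG2, MAOB and MYCN are limited by signals below that level.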
